A study of Mus musculus with 2 samples.

Results

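Neurotrophins are secreted growth factors that support the survival of neurons and adjust their dendrites and synapses, and in cortex brain-derived neurotrophic factor (Bdnf) is the member best known for its release and synthesis with neuronal activity. They are made as proproteins and cut to mature dimers. The mature forms bind Trk receptor tyrosine kinases, whereas the proproteins bind a complex of the p75 receptor and sortilin. Genes of this family were taken from the table of array signals as the probe sets that the platform annotation assigns to a single gene, with the symbol Bdnf, Ntf3, Ntf5, Ntrk2, Ntrk3, Ngfr or Sort1. Of these 7 genes 6 were found, on 7 probe sets, among 22180 named genes and 34472 probe sets in all. Ntf3 was not analysed here.

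The RNA came from ribosomes of the medial prefrontal cortex of adult mice labelled D2Cre::RiboTag. In RiboTag mice a haemagglutinin (HA) tag is added to a ribosomal protein in cells that have Cre, here under control of the dopamine D2 receptor gene Drd2, and an antibody to HA then recovers the ribosomes with the messengers on them. Tissue of 5 mice was pooled, and 2 arrays were hybridised, which the labels call technical replicates and which are taken here to share the pool. They share genotype, age and tissue as well, and there is no second condition, no RNA from before the precipitation and no precipitation without the tag among the data used here. A Cre driver marks every cell in which it was ever active, and the labels do not say which Drd2 driver line was used. The values below therefore say whether a gene was detected in the captured RNA and how closely its signal was repeated; they hold no enrichment, no spread between animals and no p-value.

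Signals are on a log2 scale, as inferred from their range. Errors are SD over the 2 technical arrays (n = 2 throughout). The array holds 1394 genes of olfactory and vomeronasal receptors, which serve smell and have little known use in cortex, and their 95th percentile was taken as the background level. A gene was above background where it exceeded that level on both arrays. The level lay at 5.61 on replicate 1 and 5.66 on replicate 2. A stricter level was the 99th percentile of the same genes, at 6.64 on both arrays. A further level was the 95th percentile of 29 genes typical of testis, liver and skeletal muscle, called the out-of-tissue level, at 7.31 on replicate 1 and 7.19 on replicate 2. The strength of binding differs from probe set to probe set, so each gene was set against these levels and no gene was ranked against another.

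Of the 6 neurotrophin genes measured, 5 were above background: Bdnf, Ntrk2, Ntrk3, Ngfr and Sort1. Over all named genes the share was 60.3%, and it was 64.1% without the sensory receptor genes. Ntf5 was the gene not above background. At the 99th percentile 4 of the 6 passed, all but Ntf5 and Ngfr, where 45.0% of all named genes did, and at the out-of-tissue level 3 of the 6 passed, Ntrk2, Ntrk3 and Sort1, where 37.3% did. With 6 genes, each count differs from the one the background share would give by fewer than 2 genes. In pooled tissue RNA of this kind, a low signal from few cells and a low signal from many cells cannot be told apart.

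**Figure D1:**
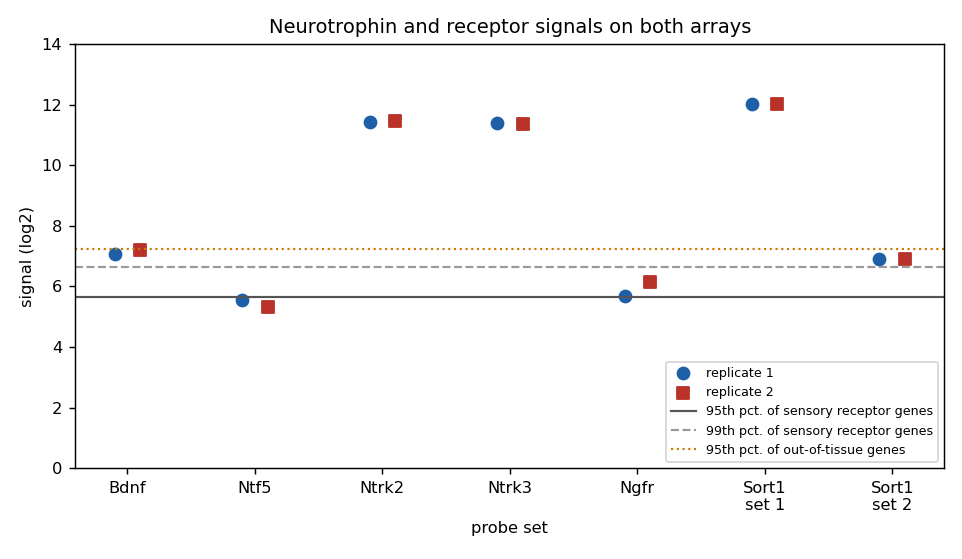
Signal (log2, vertical axis) of each of the 7 probe sets of the neurotrophin genes, with replicate 1 as circles and replicate 2 as squares; horizontal lines are the background levels, averaged over the arrays. Ntrk2, Ntrk3 and the first Sort1 probe set lie above 11 on both arrays, and Ngfr and Ntf5 lie at the lowest line.

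Among the ligands, Bdnf gave a signal of 7.08 on replicate 1 and 7.19 on replicate 2, a mean of 7.14 ± 0.08 (SD). It stood over the background level by 1.47 log2 units on replicate 1 and by 1.53 on replicate 2, and over the 99th percentile by 0.50 on average. Only 4 of the 1394 sensory receptor genes were brighter on replicate 1 and 6 on replicate 2. The arrays lay on different sides of the out-of-tissue level, replicate 1 below it and replicate 2 above it by 0.001, so Bdnf did not pass there. In a choice made after the values were seen, 1 of the 29 genes was left out of that level. This was the sperm tail gene Odf1, whose probe sets disagree. Odf1 stood above the out-of-tissue level on both arrays, so leaving it out could only lower that level. The level then lay at 6.91 on replicate 1 and 6.62 on replicate 2, and Bdnf passed it on both arrays. In all, 4 of the 6 neurotrophin genes and 42.6% of all named genes passed.

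Bdnf is transcribed from many start sites, each with a promoter of its own, and all of them splice to a shared coding exon. The array holds 1 value for the gene (probe set 17374077), which does not say from which start its messengers came. RefSeq promoter windows on the build GRCm38.p6, of 250 bases before and 50 after a start, were at hand for 3 of the 6 measured genes, with 7 windows for Bdnf, and for Ngfr and Ntrk2. Below are the most upstream Bdnf window and the single Bdnf window that holds the letters TCACGTCA, in capitals. In rodents an element with these letters lies in the Bdnf promoter that responds to calcium entry and is known to bind the activity-dependent factor CREB. They are shown because Bdnf and the genes of several of its regulators were measured in the same RNA.
Bdnf chr2:109674450-109674749, plus strand: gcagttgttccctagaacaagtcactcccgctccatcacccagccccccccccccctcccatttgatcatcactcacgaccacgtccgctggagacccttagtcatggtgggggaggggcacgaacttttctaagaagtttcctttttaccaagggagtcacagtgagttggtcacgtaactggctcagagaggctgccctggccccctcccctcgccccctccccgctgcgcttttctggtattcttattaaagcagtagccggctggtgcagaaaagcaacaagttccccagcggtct
Bdnf chr2:109692186-109692485, plus strand: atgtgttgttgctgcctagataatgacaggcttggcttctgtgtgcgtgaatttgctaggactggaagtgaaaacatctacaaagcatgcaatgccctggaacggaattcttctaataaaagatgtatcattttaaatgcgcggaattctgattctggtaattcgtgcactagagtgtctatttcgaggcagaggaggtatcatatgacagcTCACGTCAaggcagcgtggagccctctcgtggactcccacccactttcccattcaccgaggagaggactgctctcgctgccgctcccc
The 8 letters run from position -38 to -31, counted from the start site. Searched on both strands (as TCACGTCA or TGACGTGA), they occur in 1 of the 7 Bdnf windows and in 0.441% of the 32851 windows of all genes. The full cyclic AMP response element TGACGTCA, which reads the same on both strands, is in none of the 7 Bdnf windows and in 1.79% of all. The shorter CGTCA or TGACG, which is part of both motifs, is in 1 of the 7, the same window, and in 20.8% of all. The windows of Ngfr and Ntrk2 hold none of these motifs. A match of letters is a description of the sequence and no measure of binding.

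Ntf5, which encodes neurotrophin-4/5, the other ligand of the TrkB receptor, had a signal of 5.56 on replicate 1 and 5.31 on replicate 2 (5.44 ± 0.18; probe set 17477796). Both values lay under the background level of their array. On replicate 1, 76 sensory receptor genes were brighter, and on replicate 2, 118 were. Ntf5 was thus not detectable over background here, which does not show that it was absent.

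The Trk receptors gave signals far above every level. Ntrk2, which encodes TrkB, the receptor of BDNF, stood at 11.43 on replicate 1 and 11.47 on replicate 2 (11.45 ± 0.03; probe set 17287901). It exceeded the background level by 5.81 log2 units on average and the out-of-tissue level by 4.12 on replicate 1 and 4.28 on replicate 2, and none of the 1394 sensory receptor genes was brighter. Ntrk3, which encodes TrkC, the receptor of neurotrophin-3, stood at 11.39 and 11.36 on the same arrays (11.38 ± 0.02; probe set 17492244). It exceeded the background level by 5.74 and the out-of-tissue level by 4.12, again with 0 sensory receptor genes above it. Both receptor genes make a form with the kinase and truncated forms without it, and each gene has 1 value, so these forms are not separated.

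Astrocytes are known to carry much truncated TrkB, so their markers are given beside Ntrk2. All 10 astrocyte markers measured were above background and 7 passed the out-of-tissue level, where 60.3% and 37.3% of all named genes did. The mean over the list was 7.63 on replicate 1 and 7.60 on replicate 2. The filament gene Gfap was at 6.65 and 6.68 and the water channel gene Aqp4 at 6.92 and 6.94, and neither passed the out-of-tissue level. The glutamate transporter genes Slc1a2, at 9.54 and 9.48, and Slc1a3, at 8.67 and 8.60, passed it. The part of astrocyte RNA in the Ntrk2 signal was not tested.

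Ngfr encodes p75, which binds all neurotrophins and prefers the proproteins when joined by sortilin. Its signal was 5.68 on replicate 1 and 6.14 on replicate 2 (5.91 ± 0.33; probe set 17268210). It exceeded the background level by 0.07 on replicate 1 and by 0.48 on replicate 2, where 60 and 37 sensory receptor genes were brighter. It was under the 99th percentile and the out-of-tissue level on both arrays, and it passed the median of all probe sets (5.80 and 5.81) on replicate 2 only. On both arrays that median was passed by 4 of the 6 neurotrophin genes, Bdnf, Ntrk2, Ntrk3 and Sort1, and by 57.5% of all named genes. The call of Ngfr therefore rests on the most permissive level, and Ngfr is the gene just inside it, as Ntf5 is the gene just outside.

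In adult forebrain p75 is best known from cholinergic neurons of the basal forebrain, and it also occurs in cells around vessels. Of 5 cholinergic markers 1 was above background, the acetylcholine-synthesising enzyme gene Chat, with a mean of 6.02 ± 0.02. The choline transporter gene Slc5a7 was under it at 4.94 and 4.91, and none of the 5 passed the 99th percentile. Of 14 vascular and meningeal markers 11 were above background and 2 passed the out-of-tissue level, Acta2 and Vtn, with list means of 6.39 on both arrays. Over all named genes, 60.3% were above background, 45.0% passed the 99th percentile and 37.3% the out-of-tissue level. The part of either cell type in the Ngfr signal was not tested.

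Sort1 encodes sortilin, a sorting receptor of the secretory pathway that binds proneurotrophins as the partner of p75. It was the one gene of the family with more than 1 probe set, and these disagreed. The probe set 17401673 gave 12.03 on replicate 1 and 12.01 on replicate 2, which is 4.77 over the out-of-tissue level. The probe set 17409277 gave 6.91 and 6.90, which passed the background level and the 99th percentile but not the out-of-tissue level. The gap between them was 5.12 on replicate 1 and 5.11 on replicate 2, against differences between the arrays of 0.02 and 0.01 within a probe set. Among the 1082 named genes with several probe sets the median range was 2.14, and 7.12% had a range at least as wide as that of Sort1. The mean of the probe sets, 9.46 ± 0.01, is used in the counts above and describes neither of them.

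**Figure D2:**
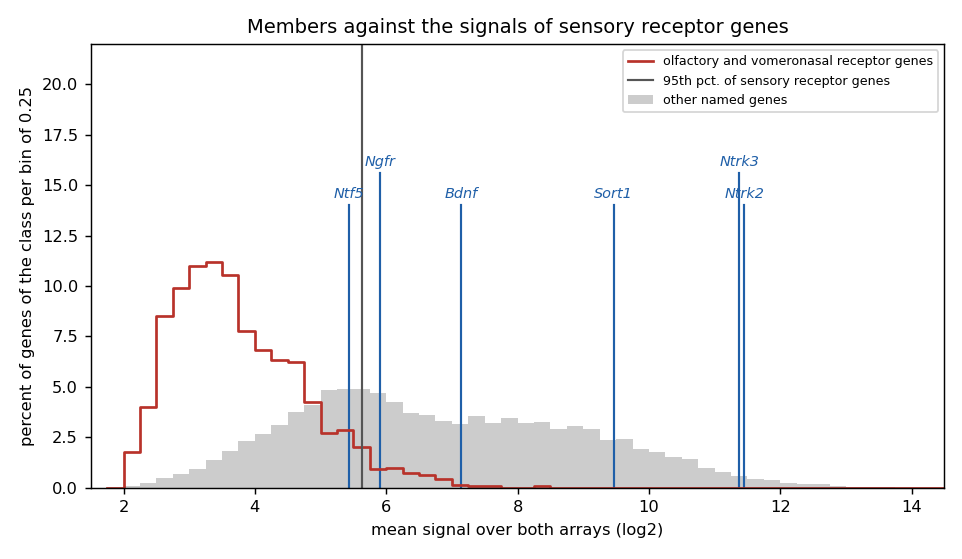
Percent of genes per bin of mean signal (log2) for the olfactory and vomeronasal receptor genes (red outline) and for the other named genes (grey bars), with a blue line at each neurotrophin gene and a grey line at the background level. Ntf5 and Ngfr fall on either side of that level in the upper tail of the sensory receptor genes, and Sort1, Ntrk3 and Ntrk2 lie beyond that tail.

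Apart from Ngfr, the signals differed between the arrays by no more than the 95th percentile for genes of like signal. For none of the 6 genes did the arrays lie over 0.5 log2 units apart, as they did for 3.38% of all named genes. For 1 gene, Ngfr, they lay over 0.25 apart, as they did for 19.2%. With 6 genes, both counts are near those shares and do not set the family apart. The differences, replicate 2 minus replicate 1, were 0.11 for Bdnf, -0.25 for Ntf5, 0.04 for Ntrk2, -0.03 for Ntrk3, 0.46 for Ngfr and -0.015 for the mean of Sort1. That of Ngfr was the widest of the 6. Among the 3833 genes within 0.5 log2 units of the Ngfr mean, the median absolute difference was 0.14 and the 95th percentile 0.43, so Ngfr lay past that percentile. Bdnf, with 0.11, lay close to the median of 0.10 of the 2864 genes around its own mean. Over all probe sets, which are not independent replicates, the arrays had a Pearson correlation of 0.9941.

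**Figure D3:**
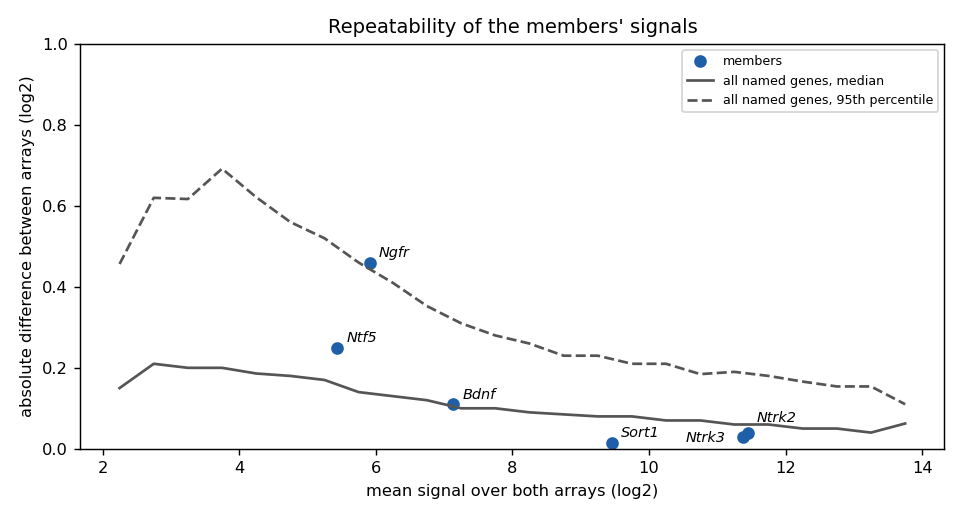
Absolute difference between the arrays (log2, vertical axis) against mean signal (log2) for the 6 neurotrophin genes (points), with the median and the 95th percentile over all named genes in bins of 0.5 (lines). Ngfr lies at the 95th percentile, and Ntrk2, Ntrk3 and Sort1 lie at or under the median.

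Genes that act with the family gave signal in most cases. Over 5 lists of partners and of other trophic factors, 83 of 92 measured genes were above background, where 60.3% of all named genes were, and 67 passed the out-of-tissue level, where 37.3% did. The median signal of these 92 genes was 8.98 and that of all named genes 6.36, values that rest on different probe sets and are given as a description only. For none of the 92 were the arrays over 0.5 log2 units apart, as they were for 3.38% of all named genes.

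Genes that cut and sort the proproteins were above background in 15 of 18 cases, where 60.3% of all named genes were. Their median was 8.53. Furin, the protease of the Golgi that cleaves many proproteins, was at 8.81 on replicate 1 and 8.77 on replicate 2 (8.79 ± 0.03). The related convertases Pcsk1, at 9.34 ± 0.06, and Pcsk5, at 7.49 ± 0.13, passed the out-of-tissue level, whereas Pcsk6, at 6.57 ± 0.01, and Pcsk7, at 6.76 ± 0.10, did not. Cpe, known as carboxypeptidase E and as a sorting receptor for BDNF, was at 12.74 ± 0.04. Outside the cell, proBDNF can be cut by plasmin and by matrix metalloproteinases. The gene of plasminogen, Plg, was not above background at 4.84 ± 0.01, nor were Mmp3 at 3.64 ± 0.28 and Mmp7 at 4.29 ± 0.18. A further metalloproteinase gene of the list, Mmp9, is named after its value was seen. It was above background at 6.12 ± 0.06 but did not pass the 99th percentile. Chosen after their values were seen, the plasminogen activator gene Plat was at 8.78 ± 0.11, its inhibitor gene Serpini1 at 11.28 ± 0.03, and the sortilin relatives Sorcs1, Sorcs2, Sorcs3 and Sorl1 at 8.68 ± 0.13, 8.19 ± 0.02, 10.02 ± 0.04 and 10.86 ± 0.09. All 4 sortilin relatives passed the out-of-tissue level.

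The co-receptors and adaptors of p75 were above background in 13 of 13 cases, with a median of 9.25, and 10 passed the out-of-tissue level. Over all named genes the shares were 60.3% and 37.3%. Rtn4r, the receptor of the myelin protein Nogo that signals with p75, was at 10.35 on replicate 1 and 10.39 on replicate 2 (10.37 ± 0.03). Its relatives Rtn4rl1 and Rtn4rl2 were at 9.17 ± 0.03 and 9.25 ± 0.22. Lingo1, which joins p75 in the same complex, was at 9.83 ± 0.13, and Tnfrsf19, which can take the place of p75 there, was at 8.62 ± 0.06. Nradd, a homologue of p75, was at 5.79 ± 0.16 and passed the background level alone. The partner genes of p75 thus stood above the out-of-tissue level in most cases, and Ngfr did not. Probe sets differ in strength, so these calls do not rank Ngfr against its partners.

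Downstream of the Trk receptors, all 33 measured genes exceeded background, and 29 passed the out-of-tissue level. The shares of all named genes were 60.3% and 37.3%. The median of the 33 genes was 9.38. The adaptor genes Shc2 and Shc3, whose products dock on activated Trk receptors, were at 8.33 ± 0.04 and 10.87 ± 0.03. Shc1 was at 6.62 ± 0.05 and did not pass the 99th percentile on both arrays. Frs3, another adaptor of Trk receptors, was at 6.38 ± 0.03. Grb2, which links these adaptors to Ras, was at 10.00 ± 0.12, and the Ras exchange factor gene Sos1 was at 9.38 on both arrays. These products also serve other receptors.

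Of the regulators of Bdnf transcription, 12 of 13 were above background, where 60.3% of all named genes were. The median of the 13 was 8.995. Creb1, which encodes CREB, was at 9.57 on replicate 1 and 9.62 on replicate 2 (9.60 ± 0.04). Its coactivator genes Crtc1 and Crtc2 were at 11.40 ± 0.04 and 7.60 ± 0.06, and Npas4, an activity-induced factor known to bind Bdnf promoters, was at 8.94 on replicate 1 and 9.05 on replicate 2. Mef2a, an activity-regulated factor, was at 11.79 ± 0.01. Crem, a relative of Creb1, was at 5.77 ± 0.08 and passed neither the 99th percentile nor the out-of-tissue level. Rest, a repressor of neuronal genes outside neurons, was the gene not above background, at 5.45 and 5.38 (5.42 ± 0.05). Without a second condition these levels say nothing of whether Bdnf was induced.

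**Figure D4:**
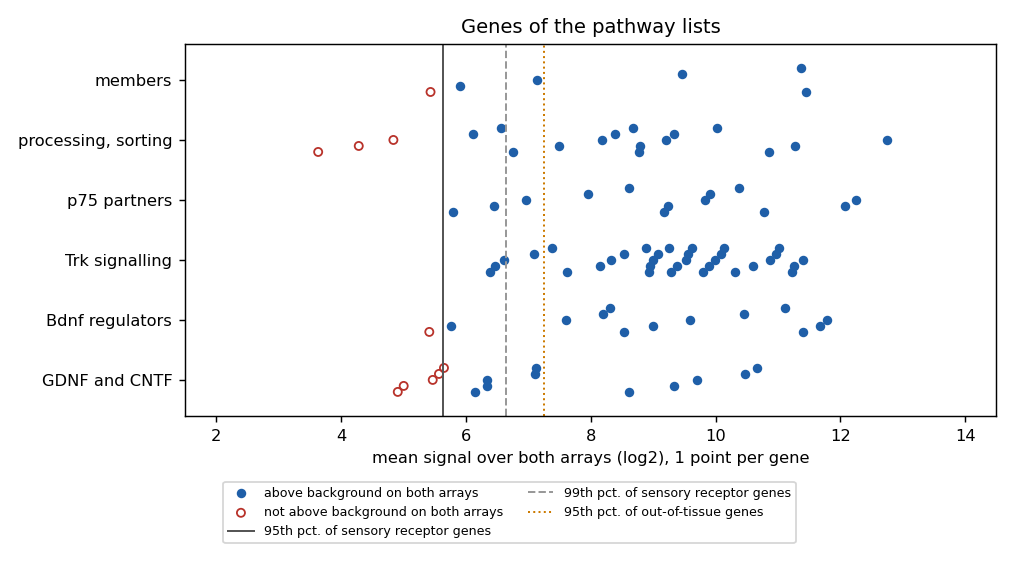
Mean signal (log2, horizontal axis) of each measured gene of the neurotrophin family and of the 5 lists of partners and other trophic factors, filled where above background on both arrays and open where not; vertical lines are the background levels averaged over the arrays. All genes of the p75 and Trk lists are filled, and 5 of 15 genes of the GDNF and CNTF list are open.

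The labels call the captured cells Drd2-positive neurons, and the markers of that label were present. Drd2 was at 10.78 on replicate 1 and 10.70 on replicate 2. All 10 pan-neuronal, 5 glutamatergic and 5 GABAergic markers measured were above background and passed the out-of-tissue level. Markers of other cells were above background too: 8 of 8 for oligodendrocytes, 6 of 6 for their precursors and 8 of 8 for microglia. Of these, 6, 2 and 3 passed the out-of-tissue level. Over all named genes 60.3% were above background and 37.3% passed the out-of-tissue level. At the latter level the counts for precursors and microglia lay near the share of all named genes. The count for oligodendrocytes lay above that share. Which of these cells carried the messengers of the neurotrophin genes cannot be read from RNA of the pool.

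**Figure D5:**
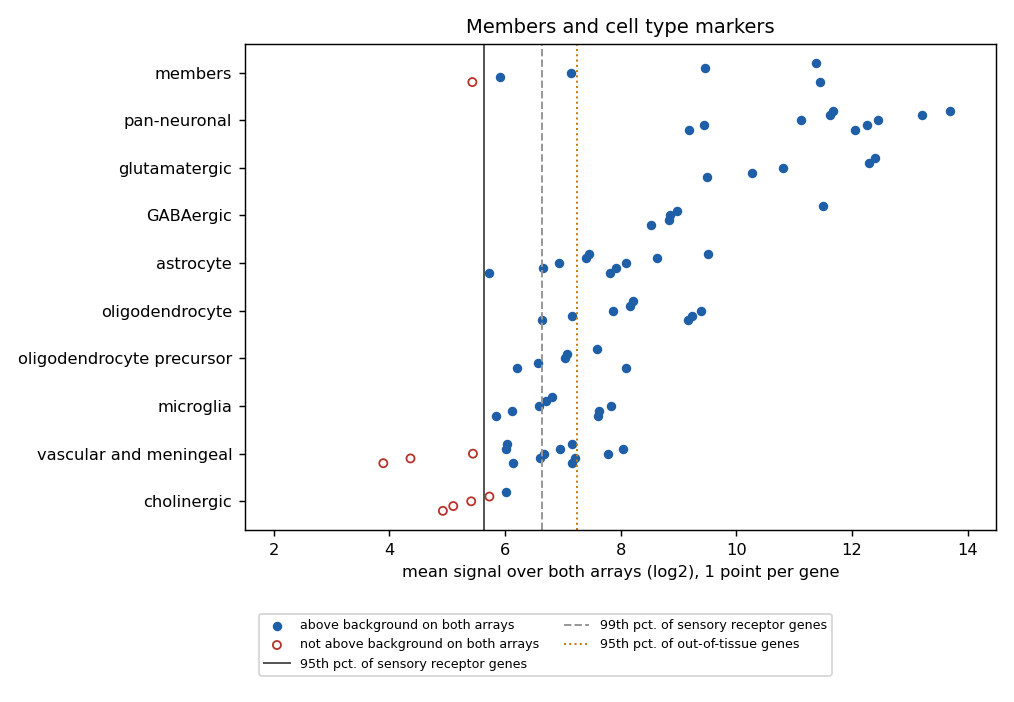
Mean signal (log2, horizontal axis) of each measured neurotrophin gene and of the markers of 9 cell classes, with points and lines as in the plot of the pathway lists. All pan-neuronal, glutamatergic and GABAergic markers lie right of every line, and 4 of 5 cholinergic markers are open.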

How the data were processed

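Per the labels' protocols, RNA from HA-precipitated ribosomes was extracted with Trizol and columns and given a biotin label with the WT Plus kit of Affymetrix. The deposited table gives 1 value per probe set and array, from 1.66 to 14.18, taken to be log2 signals from their range; none of the authors' background correction, summarisation, normalization, genome build or log base is given in the sources used here, so no position of a probe set or measured gene is printed, and the Bdnf promoter windows carry the coordinates of the RefSeq table. No scanner file or detection p-value was used. Of 34472 probe sets, 23521 name 1 gene in the platform annotation, 1814 name several and were used for none, and 9137 are unnamed here. Symbols were checked by gene identifier against a RefSeq table of GRCm38.p6, which changed 0. Probe sets of a gene were averaged, giving 22180 genes. Values of 0 columns were left out.

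The members, lists and thresholds were chosen with earlier results of these data known. Every measured neurotrophin gene is named; of each pathway list, the first 6 measured genes in written order are named, with any gene on the other side of background from most of its list. Genes named outside this rule are marked as such, apart from cell type markers, which the rule does not cover. These were picked as defining ones or, as with Chat, Acta2 and Vtn, named for the level they passed. The design allows no test, so no p-value is given, and the number of arrays limits precision. The calling step was tested on simulated data with known levels. Python 3.11.15, pandas 2.3.3 and numpy 2.4.6 were used.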

Additional observations from a re-analysis of the deposited data

How the results depend on the processing

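The count of neurotrophin genes above background, 5 of 6, fell to 3 at the out-of-tissue level, since Bdnf and Ngfr did not pass it on both arrays. That level rests on few genes: it lies between Apoa2, at 7.09 on replicate 1 and 6.67 on replicate 2, and Odf1, whose probe sets disagree at 4.98 and 9.94 on replicate 1. Without Odf1, a choice made after seeing the data, the level was 6.91 on replicate 1 and 6.62 on replicate 2, and 4 of 6 genes passed, Bdnf included, where 42.6% of all named genes did. The count was 4 at the 99th percentile of sensory receptor genes and 4 at the median of all probe sets, and it stayed at 5 with the highest probe set of a gene, with quantile normalization and with each array alone (5 to 5). With only genes of 1 probe set it was 4 of 5, where 59.8% of all such genes passed. The count of pathway genes, 83 of 92, ranged from 67 to 84 over the same alternatives (83 to 84 with each array alone), or 80 of 88 with genes of 1 probe set. The count of neurotrophin genes that differed between arrays, 0, became 1 (Ngfr) with a threshold of 0.25 log2 units, which 19.2% of all named genes passed. The Sort1 signal became 12.02 with the highest probe set; the other 5 genes have 1 probe set, which that choice cannot move. Quantile normalization moved none of the 6 signals by more than its SD. With 2 arrays, leaving 1 out cannot move a mean by more than its SD, so those values are no check of stability. No paired analysis was possible because all samples belong to 1 group.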

Other observations

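Trophic factor genes were also counted by role, as ligands or receptors, a split that was made after the values were seen. The choice to name Gfra4, Ret, Cntfr, Lifr, Il6st and Manf was likewise made after the values were seen. Of the neurotrophin receptor genes 4 of 4 were above background and of the ligand genes 1 of 2, where 60.3% of all named genes were; the out-of-tissue level was passed by 3 of 4 receptor and 0 of 2 ligand genes, where 37.3% of all did. The list of glial cell line-derived (GDNF) and ciliary (CNTF) factors counts Manf and Cdnf among its ligands, though they belong to neither family. In it, 7 of 8 receptor genes and 3 of 7 genes counted as ligands were above background. The out-of-tissue level was passed by 5 of 8 and 0 of 7. The 0 counts depend on that level. Without Odf1 in it, 1 of 2 neurotrophin ligands (Bdnf) passed, and so did 1 of the 7 genes counted as ligands in the other list (Manf). Of the receptors, 3 of 4 and 6 of 8 passed, where 42.6% of all named genes did. The GDNF and CNTF list as a whole had 10 of 15 genes above background, with a median signal of 6.35. The receptor subunit genes Gfra2, at 10.67 ± 0.02, Gfra4, at 8.61 ± 0.08, Cntfr, at 10.47 on both arrays, Lifr, at 9.71 ± 0.06, and Il6st, at 9.33 ± 0.01, were the receptors that passed with Odf1 included.

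Among the genes counted as ligands in that list, Nrtn and Pspn were above background at 6.35 ± 0.02 each and Manf at 7.11 ± 0.06. Gdnf at 4.91 ± 0.21, Artn at 5.01 ± 0.22, Lif at 5.65 ± 0.07 and Cdnf at 5.47 ± 0.10 were not above it on both arrays, nor was the receptor subunit gene Gfra3 at 5.57 ± 0.11. Gfra1 was at 6.15 ± 0.11, a mean of probe sets at 7.82 and 4.64 on replicate 1, and Ret, the kinase shared by the GDNF ligands, was at 7.13 ± 0.10. The ligand counts are small, and probe sets differ in strength, so the difference between the roles was not tested.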
